A study of Rattus norvegicus with 4 samples.

Results

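Glycolysis splits glucose into pyruvate in the cytosol, and lactate dehydrogenase turns pyruvate into lactate, which regenerates the NAD+ that the pathway consumes. Hexokinase commits glucose to the cell and phosphofructokinase sets much of the flux, and several of the enzymes, together with the mitochondrial BH3-type protein Bnip3, are known to be induced by hypoxia through the transcription factor HIF-1. Kidney proximal tubules normally rely on mitochondrial oxidation and use little glycolysis, while cultured tubule lines use it more. Described here are 8 glycolysis enzymes (Hk1, Hk2, Pfkl, Aldoa, Gapdh, Pgk1, Eno1 and Ldha) and Bnip3. They were chosen by name, as 10 listed genes, and measured through the probe whose RefSeq accession gives the current rat symbol, taking the brightest probe of a gene. Pfkp, the platelet-type phosphofructokinase, had no probe named in this way and was left out, so 9 of the 10 listed genes are described, of 8963 genes named on the array.

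The study exposed NRK-52E, an established rat kidney tubular epithelial cell line, for 1 h to medium with 0, 0.003, 0.006 or 0.009% hydrogen peroxide (H2O2), then kept the cells for 12 h without serum. The control culture, at 0%, was deprived of serum as well. Confluent cultures were used, each dose was 1 culture measured on 1 array, and so no value has a replicate and no p-value was computed between 2 doses. The series asks which molecules from dying cells make surrounding cells divide.

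The 4 arrays lay on 1 slide and were read in 1 scan, in the order of the dose, so an effect of position cannot be separated from that of dose. No noncontrol spot was saturated, 51.8 to 54.9% of probes stood well above background, and the 75th percentile of signal was 180 on the control array and 168, 158 and 121 at the rising doses. Of the tubule epithelial markers, 6 of 8 were detected, with Epcam below background on all arrays, and their summed level was 38.8 to 60.8 times the 75th percentile. Of the proximal tubule markers, 6 of 7 were detected, with Slc34a1 below background, at a summed level of 2.49 to 4.14. Fibroblast markers, with 4 of 8 detected and Dcn below background, summed to 74.3 on the control array and 37.6 to 57.0 on the treated ones. Macrophage markers (3 of 5 detected) summed to 2.37 to 4.23, with Itgam below background, and endothelial ones (1 of 5) to 0.107 to 0.322, with Pecam1 below background. Tjp1, Col1a1, Pdgfra, Acta2, Ptprc, Cdh5, Tek and Vwf had no named probe and were not measured. Detected means well above background on at least 1 array, and macrophage markers so numbered 2, 3, 1 and 2 over the arrays. A sum holds only the markers well above background on that array. The part of these marker levels in the results was not tested. A lower level can come from fewer cells that express a gene or from less RNA per cell, which cannot be told apart.

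All 9 genes were well above background on all 4 arrays. A level below is the processed signal divided by the 75th percentile of the array's noncontrol spots, and a difference is the log2 of a treated level over the control level. The error given with a difference (±) combines the scanner software's spot errors on the arrays compared. It reflects the reading of spots and not the spread between cultures. Levels of different genes come from different probes and were not compared.

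Upstream sequences are shown because hypoxia-response elements contain the core letters ACGTG or GCGTG, and because 3 of the genes that lay lowest (Pfkl, Ldha and Bnip3) and the one that lay higher (Hk2) have a single annotated start. Each run is the 250 bases before the start, from RefSeq on the GRCr8 build, written 5′ to 3′ in the direction of the gene, with each match to a core on either strand in capitals. Bnip3 lies at chr1:203154963-203155212 on the minus strand, Ldha at chr1:106507842-106508091 on the plus strand, Pfkl at chr20:10663715-10663964 on the plus strand and Hk2 at chr4:116841276-116841525 on the minus strand.
Bnip3: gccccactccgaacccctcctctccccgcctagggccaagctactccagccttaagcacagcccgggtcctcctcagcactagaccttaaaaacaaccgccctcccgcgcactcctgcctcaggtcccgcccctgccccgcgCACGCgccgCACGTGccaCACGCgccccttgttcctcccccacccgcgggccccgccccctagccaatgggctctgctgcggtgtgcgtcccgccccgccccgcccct
Ldha: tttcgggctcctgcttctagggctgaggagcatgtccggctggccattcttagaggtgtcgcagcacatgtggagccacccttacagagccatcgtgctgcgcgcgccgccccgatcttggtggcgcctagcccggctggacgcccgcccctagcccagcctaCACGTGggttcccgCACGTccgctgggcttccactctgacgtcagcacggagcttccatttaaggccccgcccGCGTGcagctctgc
Pfkl: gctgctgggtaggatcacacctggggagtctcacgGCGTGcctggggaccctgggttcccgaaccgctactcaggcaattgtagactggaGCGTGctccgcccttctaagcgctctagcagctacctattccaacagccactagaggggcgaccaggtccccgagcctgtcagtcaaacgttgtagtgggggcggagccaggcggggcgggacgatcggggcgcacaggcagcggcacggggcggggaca
Hk2: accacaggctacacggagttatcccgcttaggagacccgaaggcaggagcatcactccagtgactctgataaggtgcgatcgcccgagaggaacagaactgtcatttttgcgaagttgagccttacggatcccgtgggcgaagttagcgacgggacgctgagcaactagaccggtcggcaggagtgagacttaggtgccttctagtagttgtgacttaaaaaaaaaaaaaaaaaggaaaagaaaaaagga

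Bnip3 held 3 separate matches, beginning 108, 99 and 90 bases before its start, and Ldha 3, beginning 87, 73 and 14 bases before it. The match at 99 in Bnip3 and that at 87 in Ldha are the palindrome CACGTG, which is also an E-box and was counted once. Pfkl held 2 matches, at 215 and 160 bases, and the Hk2 window held none. Gapdh, whose differences were only 0.08, -0.11 and -0.19 over the doses, has a single annotated start too. Its window, not printed, held 3 matches, at 216, 206 and 121 bases. The printed windows were picked by the levels of their genes, and a link between matches and levels was not tested. Of the 10 listed genes, 9 had an upstream window in the table, among them Pfkp, which has no level here, but not Pgk1. Of these 9 genes, 8 had a match in at least 1 window, Pfkp included. In all, 9 of 13 windows of these genes (69.2%) held a match, beside 36.7% of the 33469 windows of that length in the table, and CACGTG was in 5.59% of them. A match is a run of letters and not a measured binding site.

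Hexokinase traps glucose as glucose 6-phosphate, and its 2 measured forms went opposite ways. Hk1, the widely expressed form, had levels of 22.6 on the control array and 13.7, 10.1 and 12.3 at 0.003, 0.006 and 0.009%. The control was highest and the middle dose lowest, with differences of -0.73 ± 0.20, -1.17 ± 0.20 and -0.88 ± 0.20. Hk2, the inducible form, had levels of 0.0960, 0.601, 0.579 and 0.269 in the same order. All 3 treated arrays lay above the control, the highest dose least, and the other doses differed from each other by less than their spot error.

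Hk2 was thus 6.26-fold, 6.03-fold and 2.80-fold above the control, at differences of 2.65 ± 0.29, 2.59 ± 0.29 and 1.49 ± 0.31. These lay above 98.9, 98.6 and 93.2% of the features compared, a feature being a named gene or an unnamed transcript. With normexp, a background correction that pulls dim signals together, the differences were 1.21, 1.14 and 0.81, and with spike-in scaling, which sets arrays by the RNA added as a control, 2.47, 2.07 and 0.27. The control signal of Hk2 was dim, which is where background correction matters most. Set against Hk1 on the same array, which removes any scaling factor, the difference of Hk2 was larger by 3.37 ± 0.36, 3.76 ± 0.36 and 2.36 ± 0.37. This contrast of changes from the control, which is not a gap between levels, was smallest at the highest dose. It does not remove the effect of background correction: with normexp Hk1 was at -0.70, -1.19 and -1.04, beside the normexp values of Hk2 above.

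A second Hk1 probe, dimmer on every array, gave -0.73, -1.22 and -1.27. It put Hk1 past 2-fold below the control at 0.009%, where the brighter probe did not.

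Phosphofructokinase makes fructose 1,6-bisphosphate and is the main control point of the pathway. Pfkl, its liver-type subunit, had levels of 2.88, 1.65, 1.16 and 1.26 in the same order of arrays. Every treated array was lower than the control, and the 2 higher doses differed from each other by less than their spot error. The differences were -0.80 ± 0.20, -1.31 ± 0.21 and -1.19 ± 0.21, or 1.75-fold, 2.48-fold and 2.28-fold lower, and at 0.009% only 4.71% of features lay further down. The muscle-type subunit Pfkm, named after its values were seen, had another order over dose: it was lowest at the lowest dose, at -1.64, then -1.01 and -0.43 (each ± 0.20), and -1.81, -1.54 and -1.65 with spike-in scaling.

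Of the middle of the pathway, Aldoa, Gapdh, Eno1 and Pgk1 lay near the control at the lowest dose. Aldoa, the aldolase that cleaves fructose 1,6-bisphosphate, had levels of 120, 136, 115 and 101. Its differences of 0.19, -0.06 and -0.25 (each ± 0.20) exceeded their spot error only at 0.009%, and the positive one turned to -0.03 with quantile normalization. Gapdh, which oxidises glyceraldehyde 3-phosphate and yields NADH, had levels of 157, 167, 146 and 138, each the mean of 10 spots whose SD on 1 array was 0.052 to 0.067 on the log2 scale. Its differences were 0.08, -0.11 and -0.19 (each ± 0.06), the first turning to -0.06 with array median, -0.10 with quantile and -0.09 with spike-in scaling. Eno1, the enolase of most tissues, had levels of 252, 261, 235 and 217, and differences of 0.05, -0.10 and -0.22 (each ± 0.20), the first negative with array median (-0.10), quantile (-0.16) and spike-in scaling (-0.13).

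Pgk1, phosphoglycerate kinase, which makes the first ATP returned by the pathway, stood apart from these neighbours at the higher doses. Its levels, from 10 spots each, were 38.8, 38.8, 29.0 and 24.6. The control and the lowest dose were equal, and the other arrays lower, at -0.42 ± 0.06 and -0.66 ± 0.06, or 1.34-fold and 1.58-fold. Against Gapdh on the same array Pgk1 differed by -0.08, -0.31 and -0.46, a quantity that scaling by 1 factor does not change, while Aldoa and Eno1 stayed within 0.10 of Gapdh at every dose. A second Gapdh probe gave 0.06, -0.13 and -0.26, and a second Eno1 probe 0.04, -0.24 and -0.42.

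Ldha, the lactate dehydrogenase subunit that favours the making of lactate, was lower at every step of dose. Its levels were 33.1, 25.3, 17.1 and 15.2, with an SD over 10 spots of 0.055 to 0.060. No 2 of these arrays overlapped within their spot SD. The differences were -0.39, -0.96 and -1.13 (each ± 0.06), or 1.31-fold, 1.94-fold and 2.19-fold lower, and against Gapdh on the same array -0.47, -0.84 and -0.94. At 0.009%, 5.52% of features lay further down.

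Bnip3, a protein of the outer mitochondrial membrane that takes part in mitophagy and cell death, followed a like course. Its levels were 6.03, 3.94, 2.92 and 2.53, lower at each step, and the control lay above all treated arrays. The differences were -0.61, -1.05 and -1.25 (each ± 0.20), or 1.53-fold, 2.07-fold and 2.38-fold lower. At 0.009%, 4.06% of features lay further down, and Bnip3 and Pfkl differed from each other by less than their spot error. Of the 22352 features well above background on at least 1 array, 5.74% were lower at each of the 3 steps of dose. Among the 9 genes these were Ldha and Bnip3, which were lower at each step under all 7 alternatives of scaling, background and probe rules too. The scaling set how many others joined them: 6 genes were lower at each step with array median scaling (17.7% of features), 6 with quantile normalization (8.49%), 7 with spike-in scaling (34.8%) and 3 with normexp (5.11%). None of the 9 was higher at each step, beside 15.3% of features.

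**Figure D1:**
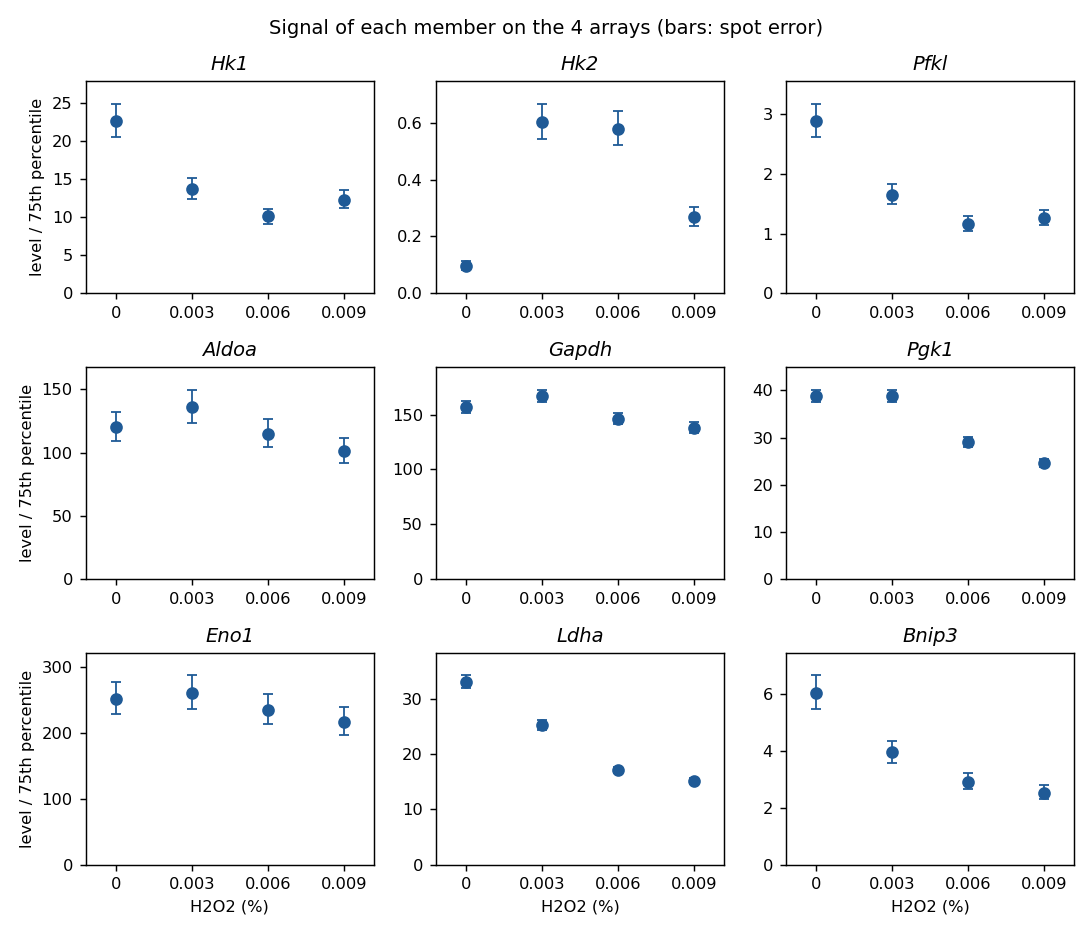
Level of each of the 9 genes on the 4 arrays (vertical axis: processed signal divided by the array's 75th percentile, linear, from 0; horizontal axis: H2O2 in percent; points: the array's value; bars: spot error, no replicates). Hk2 is lowest on the control array at 0.0960 and highest at 0.003% at 0.601, Ldha and Bnip3 are lower at each dose, and Eno1 stays between 217 and 261.

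Counted over the 8 enzymes, none was at least 2-fold lower at 0.003%, and 1, Hk2, was at least 2-fold higher, beside 13.6% and 14.9% of all 20895 features compared. At 0.006% 2 were at least 2-fold lower (Hk1 and Pfkl) and Hk2 higher, beside 10.5% and 14.9% of 20677 features. At 0.009% again 2 were lower (Pfkl and Ldha) and Hk2 higher, beside 7.40% and 16.5% of 21459 features. The 2-fold limit selects by size alone. Values close to it were Ldha at 0.006% (-0.96) and Bnip3 at 0.006% (-1.05).

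The median of the 8 enzymes was 0.02, -0.27 and -0.45 over the doses, beside 0.03, 0.01 and 0.13 over all features. Without Hk2 it was 0.00, -0.42 and -0.66, with 3, 7 and 7 of 7 enzymes below 0. Of the 9 genes, 5 (Aldoa, Gapdh, Pgk1, Eno1 and Ldha) were among the brightest 10% of features, whose median was 0.24, 0.25 and 0.28, a background added after the values were seen. Scaling decided how far down the enzymes lay: with spike-in scaling their median was -0.15, -0.79 and -1.67, where that of all features was -0.15, -0.45 and -1.05, and with array median scaling it was -0.12, -0.58 and -1.01, where all features were at -0.12, -0.24 and -0.40. At 0.006% and 0.009% the 7 enzymes other than Hk2, and Bnip3, were below the control under each of these scalings, quantile normalization and normexp. Hk2 was above it under all of them, though at 0.009% with spike-in scaling by 0.27, less than its spot error of 0.31.

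**Figure D2:**
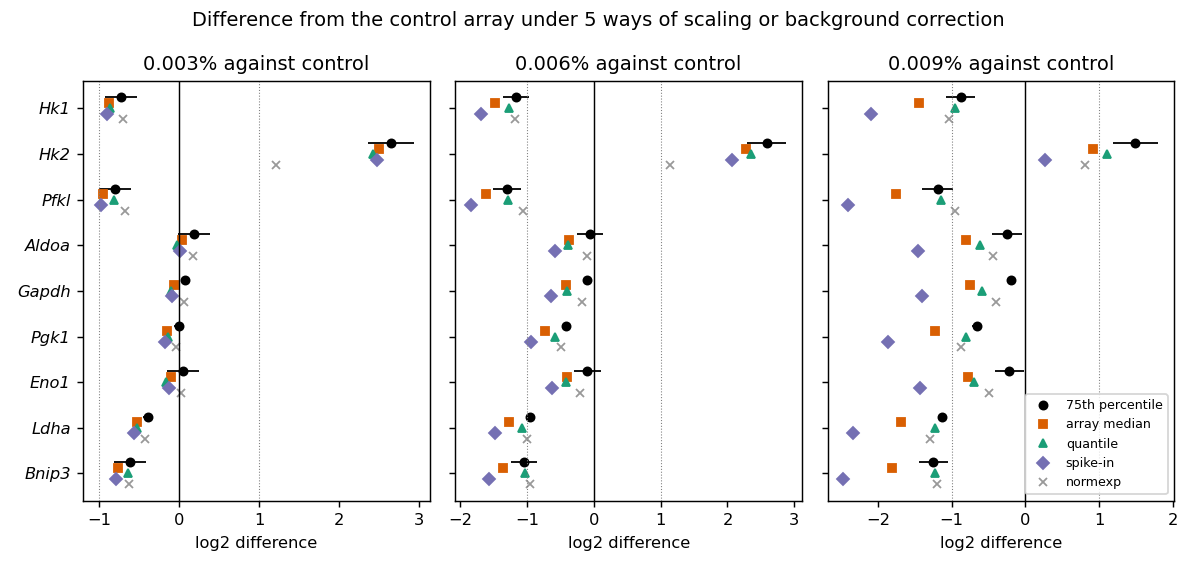
Log2 difference from the control array (horizontal axis) of the 9 genes, in a panel per dose, with the 75th percentile scaling in black (bars: spot error) and 4 alternatives as coloured marks; dotted lines mark 2-fold. At 0.009% spike-in scaling moves Ldha from -1.13 to -2.34 and Hk2 from 1.49 to 0.27, the same shift for every gene.

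From the lowest to the highest dose, at 0.009% against 0.003%, all 8 enzymes and Bnip3 were lower. Hk2 was at -1.16 ± 0.23, Ldha at -0.74 ± 0.06, Pgk1 at -0.66 ± 0.06, Bnip3 at -0.64 ± 0.20 and Hk1 at -0.15 ± 0.20, where the second Hk1 probe gave -0.54. The median of the enzymes was -0.41, beside 0.16 over all features. Hk2 alone was at least 2-fold lower, beside 5.31% of 21249 features, and with normexp its difference was -0.40, nearer to 0 than that of Ldha (-0.87), Pgk1 (-0.83) or Bnip3 (-0.58). This comparison shares its arrays with those above.

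A straight line over dose, fitted with limma to all 22352 features on 4 arrays with 2 residual degrees of freedom, was the one test the design allowed. No feature passed an adjusted p (Benjamini-Hochberg) of 0.05. At an unadjusted p under 0.05, 608 features (2.72%) fell and 2487 (11.1%) rose along the line, and among the 9 genes Bnip3 and Ldha had such a p. The slope of Bnip3 was -0.42 ± 0.12 (SE) per 0.003% H2O2 (limma, adjusted p = 0.30). That of Ldha was -0.40 ± 0.11 (limma, adjusted p = 0.31). For Pfkl the slope was -0.41 ± 0.15 (limma, adjusted p = 0.36), and for Hk2, whose course was not a line, 0.44 ± 0.43 (limma, adjusted p = 0.68). The other 5 had slopes of -0.31 to -0.08 and adjusted p of 0.45 to 0.78 by limma.

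The other enzymes of the pathway were taken from a list of 19, of which 13 to 14 could be compared at a dose. At 0.003, 0.006 and 0.009%, 3, 3 and 2 were at least 2-fold lower, beside 13.6, 10.5 and 7.40% of all features. Higher were 1, 1 and 2, beside 14.9, 14.9 and 16.5%, and these shares hold for the lists below too. The medians were -0.64, -0.48 and -0.37, and their order over dose depended on the scaling. With array median scaling they were -0.79, -0.79 and -0.93, and with spike-in scaling -0.82, -1.01 and -1.58. Quantile normalization (-0.46) and normexp (-0.19) left the last one nearest to the control. Tpi1, triose phosphate isomerase, was at -0.67, -1.08 and -1.02 (each ± 0.20), and Eno2, the neuronal enolase, at -0.82, -1.18 and -1.03. Gpi, which follows hexokinase, was at -0.61, -0.68 and -0.43, and Pkm, the pyruvate kinase that makes the last ATP, at -0.20, -0.49 and -0.56. Pgam1, phosphoglycerate mutase, was above the control at 0.70, 0.38 and 0.08, the last 2 turning negative with quantile and spike-in scaling and the last also with array median scaling and normexp. Ldhc, the testis form of lactate dehydrogenase, was not well above background in the control and at least 27.3-fold higher at 0.009% (2.20 on the log2 scale with normexp).

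**Figure D3:**
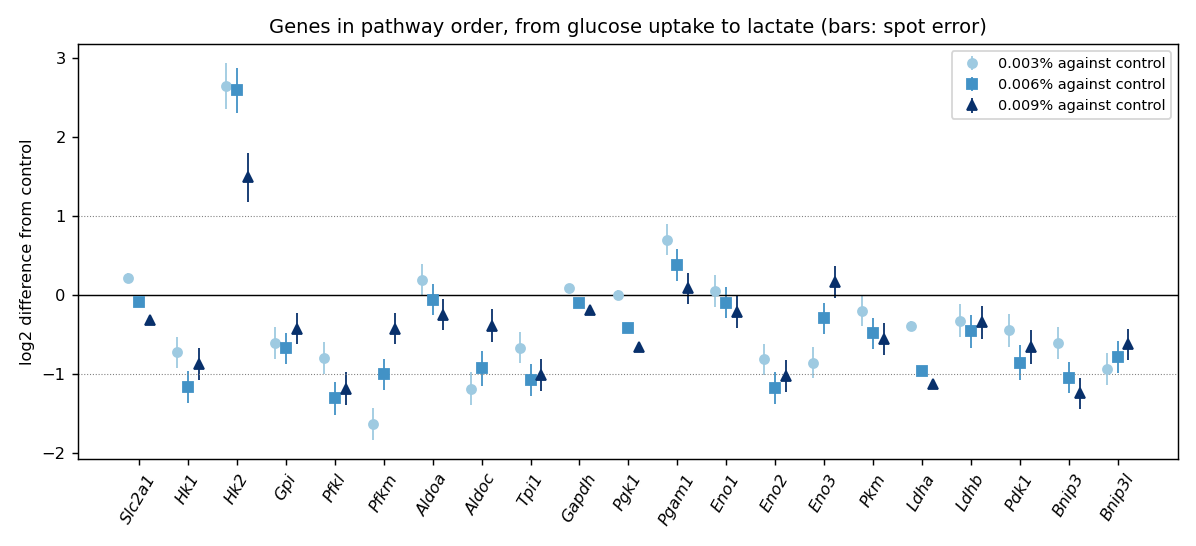
Log2 difference from control (vertical axis, with spot error bars) of the members and of other genes of the pathway in the order of their steps, followed by Pdk1, Bnip3 and its relative Bnip3l, with a mark per dose (circle 0.003%, square 0.006%, triangle 0.009%). Hk2 lies at 1.49 to 2.65, and Hk1, Pfkl, Tpi1, Eno2, Ldha and Bnip3 lie below 0 at all doses.

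Among the regulators of phosphofructokinase, which set the level of fructose 2,6-bisphosphate, 4 of 5 could be compared, and 0, 1 and 1 were at least 2-fold lower over the doses. Pfkfb1 was at -0.59, -1.13 and -1.41, while Pfkfb4 and Pfkfb3, which can be induced by hypoxia, were at 0.89 ± 0.31 and 0.65 ± 0.38 at 0.009%, both negative with spike-in scaling. Of the glucose and lactate transporters, 6 of 9 could be compared, with medians of -0.08, -0.10 and 0.08, the last negative with array median (-0.48), quantile (-0.27) and spike-in scaling (-1.13). Slc2a1, the glucose transporter GLUT1, was at 0.21, -0.09 and -0.32 (each ± 0.06), and Slc2a8 at -0.65, -1.39 and -1.31. The lactate transporter Slc16a1 was at 0.30, 0.52 and 0.47 (each ± 0.20), the last negative with array median (-0.09) and the higher 2 doses with spike-in scaling (-0.01 and -0.74). Slc16a3, a dim lactate transporter, was at 1.45 ± 0.37 at 0.003% (0.36 with normexp, under 2-fold), not well above background at 0.006%, where no difference could be given, and at 0.59 ± 0.45 at 0.009%, the latter negative with quantile (-0.05) and spike-in scaling (-0.63).

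Downstream of pyruvate, the genes of pyruvate entry into mitochondria had medians of -0.24, -0.29 and -0.10 over 10, 10 and 11 of 14 genes. With array median scaling the medians were -0.39, -0.60 and -0.66, and with spike-in scaling -0.42, -0.81 and -1.31, further from the control with dose. Pdk2 and Pdk1, kinases that switch off pyruvate dehydrogenase, were at -1.91, -1.42 and -0.74, and at -0.45, -0.86 and -0.66. With spike-in scaling Pdk2 was at -2.08, -1.94 and -1.95. Pdp2, a dim gene for an opposing phosphatase, was higher at 0.009% by a bound of 0.75 ± 1.34, lost with quantile and spike-in scaling. The brighter Pdp1, another such phosphatase named after its values were seen, went the other way, at -0.04, -0.29 and -0.56 (each ± 0.20). The pentose phosphate pathway, which draws glucose 6-phosphate off to make NADPH, had 4 of 8 genes compared and medians of 0.58, 0.51 and 0.32, the middle one at -0.01 with spike-in scaling and the last turning to -0.25 with array median, -0.11 with quantile and -0.90 with spike-in scaling. Taldo1, a transaldolase, was at 1.08, 0.89 and 0.51, and Rpe, an epimerase, at 1.37, 1.10 and 0.36. The values of Taldo1 and Rpe at 0.009% turned negative with array median and spike-in scaling.

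Gluconeogenesis, which runs the other way and is a function of proximal tubules, had 4, 3 and 5 of 6 genes compared, with medians of 0.02, -0.65 and 0.96, of which 1, 1 and 2 were at least 2-fold higher and 1, 0 and 0 lower. Fbp2 and G6pc3, which were above background on the arrays compared and are named after their values were seen, lay below the control, at -1.52, -0.92 and -0.44 and at -0.58, -0.65 and -0.52. The higher ones at 0.009% were dim genes given as bounds: G6pc1, glucose 6-phosphatase, was at least 7.02-fold higher and Fbp1, fructose 1,6-bisphosphatase, at least 2.75-fold, at 1.11 and 0.76 on the log2 scale with normexp. Fbp1 was under 2-fold with array median (0.90), quantile (0.88) and spike-in scaling (0.25) as well. Pck1 was at least 1.94-fold higher, a bound lost with spike-in scaling.

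Of the HIF pathway and its targets outside glycolysis, 31 genes, 20, 19 and 19 could be compared. At least 2-fold higher were 6, 7 and 6 of them, beside 14.9, 14.9 and 16.5% of all features, and lower 0, 0 and 1, beside 13.6, 10.5 and 7.40%. Their medians were 0.56, 0.29 and 0.20, the middle one negative with array median (-0.02) and spike-in scaling (-0.24), and the last with the same scalings (-0.36 and -1.01). Of those counted as at least 2-fold higher, some were bounds because the control was not well above background. These were Adm at every dose, Bhlhe41 at 0.003% and 0.006%, Ndrg1 at 0.006% and Egln3 at 0.009%. With normexp all of these bounds were under 2-fold, so the counts depend on the background correction, and on the scaling as well. Bhlhe41 and Ndrg1 are named after their values were seen. Vegfa, the vascular growth factor, was at 3.71, 3.80 and 3.26, Hmox1, haem oxygenase, at 5.56, 6.14 and 6.10, and Ddit4, an inhibitor of mTORC1, at 1.64, 1.69 and 1.35, genes that other stress pathways also induce. At 0.009% Ddit4 was under 2-fold with array median (0.79) and spike-in scaling (0.14) and with normexp (0.97). Adm, adrenomedullin, was at least 4.94-fold higher at 0.009% (0.94 on the log2 scale with normexp). Egln3, a HIF prolyl hydroxylase, was higher by bounds of 0.75 at 0.003% and 1.01 at 0.009%, the latter under 2-fold with array median (0.45), quantile (0.34) and normexp (0.59) and lost with spike-in scaling. Hif1a itself was at 0.22, 0.05 and -0.03 (each ± 0.20), the middle value negative with array median, quantile and spike-in scaling and normexp.

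Of 13 relatives of Bnip3 and factors of mitophagy, 7 could be compared, and none was at least 2-fold lower at any dose with the 75th percentile scaling. At 0.006% Bnip3l was with array median (-1.10), quantile (-1.09) and spike-in scaling (-1.32), and Fkbp8, another mitophagy receptor, with array median (-1.04) and spike-in scaling (-1.25). At 0.003% Bnip3l was with array median (-1.08), quantile (-1.18) and spike-in scaling (-1.11), and Fkbp8 with array median (-1.11) and spike-in scaling (-1.14). At 0.009% Bnip3l was with array median (-1.19) and spike-in scaling (-1.85). There spike-in scaling put Fkbp8 (-1.61), Optn (-1.62), Bnip1 (-1.11) and Fundc1 (-1.17) past 2-fold too, beside a median of -1.05 over all features. Bnip1 and Fundc1 are named after their values were seen. Bnip3l, the closest relative of Bnip3, was at -0.94, -0.79 and -0.63 (each ± 0.20), nearer to the control with dose where Bnip3 was further from it. With array median scaling Bnip3l was at -1.08, -1.10 and -1.19, and with spike-in scaling at -1.11, -1.32 and -1.85, further from the control with dose. Sqstm1, the autophagy receptor p62, was at 1.16, 1.14 and 0.76, the last negative with spike-in scaling, and Optn, another receptor, at -0.52, -0.35 and -0.40.

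The 9 genes were also compared by the distance between their 3 differences, a description over 4 arrays that share 1 control. Eno1 and Gapdh lay closest, at 0.04 log2 units, then Aldoa and Gapdh at 0.13. Ldha was 0.27 from Bnip3, and Pfkl 0.33 from Bnip3. Hk2 was at least 4.01 from every other gene. Among 4978 other named genes well above background on all arrays, the 5 nearest to Bnip3 were Pomgnt2 (distance 0.07), Mindy1 (0.12), Cmtr1 (0.15), Plec (0.15) and C1s (0.16). The 5 nearest to the median of the 8 enzymes were Fads3 (0.05), Anxa11 (0.06), Pcsk7, Secisbp2 and Cbr1 (each 0.08).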

How the data were processed

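Total RNA was labelled with Cy3 and hybridised to 1-colour Agilent arrays, 1 per culture. The authors read array design 014879, annotated on rn4, with version 10.7.3.1 of Feature Extraction under protocol GE1_107_Sep09, and per the file headers the deposited spot intensity is background-subtracted and detrended. Its 75th percentile differed between arrays, so arrays had not been set to a common one. The authors' deposited value table holds a ratio: in 100% of probes it equalled that processed signal, averaged per probe, over the array's median, within 1e-05 of the value. It served as an alternative.

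Outlier spots were left out, log2 signals of a probe's spots averaged, and each array's 75th percentile (log2) subtracted. Of 41012 probes 41007 were used. RefSeq accessions in a GRCr8 gene table named 10834 (26.4%), and unnamed probes were kept as 1 feature per transcript ID, a choice made after the data were seen. Features had to be well above background on 1 or more of the arrays compared. Where a side was not, the higher of its own value and the lowest detected signal stood for it, and the difference is called a bound. The dose trend was fitted with limma 3.58.1 in R 4.3.3 and tested on simulated data. Alternatives were array median, quantile and spike-in scaling (7 probes), normexp (offset 50) on median signals because the scanner files lack a mean signal column, other probe and spot rules, and leaving out each array. The number of arrays limits the precision.

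The members and gene lists were chosen with earlier results of these data known. Genes named from each list are the 3 with the largest difference at 0.009%, plus Tpi1, Pgam1, Pkm, Gpi, Slc2a1, Pdk1, Bnip3l, Vegfa, Egln3, Hif1a, Ddit4 and Pfkfb3. Some results under this rule are not reported here.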

Additional observations from a re-analysis of the deposited data

Results flagged for a closer look

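Gapdh lay above the control at 0.003% H2O2 by 0.08 and below it at 0.006% and 0.009%, at -0.11 and -0.19 on the log2 scale, and each value exceeded its spot error of 0.06. The opposite directions at different doses drew attention. The difference between doses was not tested, and with array median, quantile and spike-in scaling Gapdh was below the control at all 3 doses.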

How the results depend on the processing

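With 1 array per dose no value has a replicate. Scaling moved the median of the enzymes, and for dim Hk2 at 0.003% and 0.006% normexp moved the difference further than any scaling. The median of the 8 enzymes at 0.003% went from 0.02 to -0.12 with array median scaling and with the authors' value table, to -0.15 with quantile and with spike-in scaling, and to -0.01 with normexp. At 0.006% it went from -0.27 to -0.58 with array median scaling and the value table, -0.51 with quantile and -0.79 with spike-in scaling. At 0.009% it went from -0.45 to -1.01 with array median scaling and the value table, -0.76 with quantile, -1.67 with spike-in scaling and -0.68 with normexp. From 0.003% to 0.009% it went from -0.41 to -0.82 with array median scaling and the value table and -1.45 with spike-in scaling.

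Enzymes at least 2-fold lower at 0.009% numbered 4 with array median scaling and the value table and 7 with spike-in scaling, where the main count was 2, and those higher went from 1 to 0 with these and with normexp. Between the outer doses the lower ones numbered 3, 3 and 8 with the same settings and 0 with normexp, from 1. In the dose trend, 2 of the 9 genes at an unadjusted p under 0.05 became 5 with array median scaling and with normexp and 8 with spike-in scaling, and 0 to 3 with 1 array left out: 3 without the control, 1 without 0.003%, 0 without 0.006% and 1 without 0.009%. No member passed an adjusted p of 0.05 in any of these fits, in which the smallest by limma was 0.090 to 1.00, although 330 features passed without the 0.003% array. Over all features, 3095 had an unadjusted p under 0.05, against 7837 with spike-in scaling, 9398 without the control array, 1299 without the 0.006% array and 1958 among features detected on all arrays. In an alternative added after the data were seen, the genes lower at each step of dose went from 2 to 6 with array median scaling, quantile normalization and the value table, 7 with spike-in scaling and 3 with normexp. Without the control the slope of Hk2 went from 0.44 to -0.58. Taking the mean of all probes or keeping outlier spots moved no difference of the 9 genes by more than its spot error. The value table is scaled by the array median by its construction, and the cause of the other shifts was not tested. No paired analysis was possible because each group is 1 array.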
